A study of Mus musculus with 18 samples.

Results

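The genes described here are 8 markers of the 2 epithelia that line the ventricles of the brain: Ttr, Folr1, Kl, Clic6, Otx2, Sostdc1 and Enpp2 for the choroid plexus, and Foxj1 for ciliated ependymal cells. They were matched by gene name, and all 8 were found among the 23904 gene names that the tables of the 3 tissues hold in common. The choroid plexus is a folded sheet of epithelium that secretes cerebrospinal fluid and exports transthyretin, the carrier of thyroxine and retinol, into it. Ependymal cells form the ventricle wall and move the fluid with motile cilia. The hypothalamus borders the third ventricle, so a dissected piece can carry some of either epithelium along with neurons and glia.

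RNA was taken from the hypothalamus, the gonadal adipose tissue and the liver of male C57BL/6 mice aged 3 weeks, with 6 samples per tissue. In each tissue, 3 samples came from offspring of dams gavaged daily with bisphenol A (BPA, a plastics chemical with estrogenic activity) at 5 mg/kg, dissolved in corn oil, from day 1 to day 20 after conception. The other 3 came from offspring of dams given the corn oil vehicle alone. All dams were kept on a diet low in isoflavones, in cages free of polycarbonate, and the offspring came from 4 litters of BPA dams and 3 litters of vehicle dams. The study asks what prenatal BPA does to gene expression in each tissue. That question could not be put to these genes, because the headings of the expression columns give a tissue and a number that is in no sample label. The columns are therefore grouped by tissue only, each group of 6 mixes both treatments, and a treatment effect cannot be told apart from the spread within a tissue. The numbers 03, 15, 25 and 42 head a column in all 3 tissues, hypothalamus and liver share all 6 of their numbers, and no label says whether a shared number marks the same mouse.

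Levels are in FPKM, fragments mapped to a transcript, scaled to its length and to the mapped fragments of the sample, summed over all assembled transcript models of a gene. FPKM summed to between 238309 and 256127 over all genes in a hypothalamus column, 169666 to 217234 in an adipose column and 288191 to 329290 in a liver column. The number of reads behind a column is unknown. An exact 0 can be a failed estimate: of 5307 genes that reached 10 FPKM in some hypothalamus column, 90 (1.70%) were listed at 0 in another. Markers of the labelled tissues stood where the labels put them, since adiponectin (Adipoq) was at 462 to 885 FPKM in adipose and listed at 0 in every hypothalamus and liver column, and albumin (Alb) was at 1112 to 41280 FPKM in liver. In hypothalamus the pituitary hormones Gh and Prl were listed at 0 in every column, and the melanocortin precursor Pomc lay between 3.75 and 14.9 FPKM. Hypothalamus column 25 stood apart in its makeup. It had the highest summed level of 10 thalamus and habenula genes, 380 FPKM against 180 to 264 in the other 5, and of 9 oligodendrocyte genes, 4231 FPKM against 2848 to 3198. It had the lowest sum of 12 hypothalamic neuron genes, 910 FPKM against 1204 to 1619. Some brain genes also appeared in liver column 15. There the sum of the 12 hypothalamic neuron genes was 4.30 FPKM, against 0.128 to 0.480 in the other liver columns. The sum of the 9 oligodendrocyte genes was 12.1 FPKM against 2.13 to 4.48. The sum of 8 neuron genes was 3.95 FPKM against 1.41 to 2.03. The sums of astrocyte, tanycyte and thalamus genes were highest in other liver columns. Each of these lists holds genes above 0 in every liver column, such as Agt (245 to 353 FPKM), Vim (7.18 to 15.3) and Prkcd (1.21 to 2.25). The source of these values was not tested. In these bulk samples fewer cells of a type and less RNA per cell cannot be told apart.

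One hypothalamus column stood apart for choroid plexus genes. Column 03 had the highest level of 6 of the 7 members that were above 0, namely Ttr, Kl, Clic6, Otx2, Sostdc1 and Enpp2. Among 12362 genes that reached 1 FPKM in some hypothalamus column, 16.4% were highest in column 03, and the share ran from 9.17% to 26.0% over the 6 columns. Otx2 stayed below that minimum and is not among the 12362. The level there was at least 2 times that of the next column for Ttr, Kl and Sostdc1, 3 of the 7, and 0.413% of the 12362 genes had that pattern. Foxj1, the ciliary regulator, did not share it and was lowest in column 03.

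**Figure D1:**
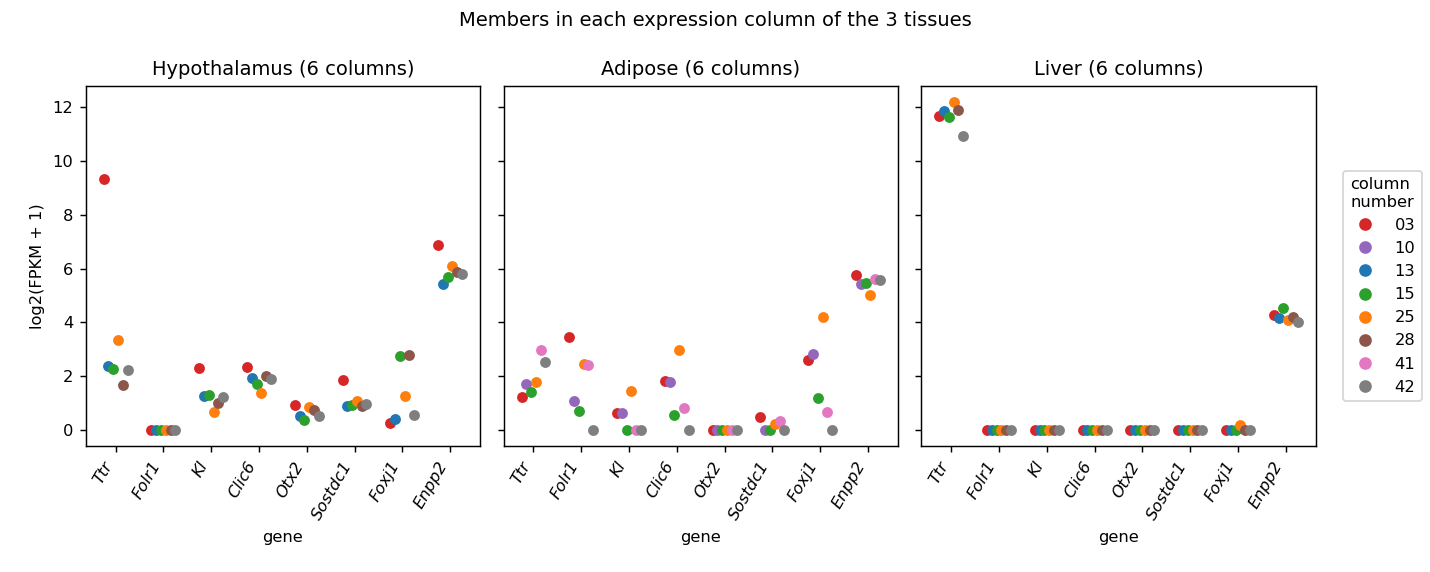
Level of each of the 8 genes in the 6 expression columns of hypothalamus, adipose and liver, as log2(FPKM + 1) on the vertical axis, with 1 point per column coloured by its number. In hypothalamus the point of column 03 is on top for 6 genes and lies at 646 FPKM for Ttr, where the other 5 are between 2.17 and 9.08 FPKM; in liver all 6 Ttr points lie between 1952 and 4665 FPKM.

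Ttr encodes transthyretin, a major secreted product of the choroid plexus, and liver makes it for the blood. The gene lies at chr18:20665280-20674321 on the plus strand (mm10, GENCODE M21). In hypothalamus it was at 646 FPKM in column 03, 4.22 in column 13, 3.80 in column 15, 9.08 in column 25, 2.17 in column 28 and 3.62 in column 42. Column 03 was 71.2 times the next highest, and the other 5 stayed below 10 FPKM. In adipose its level was 1.33 to 6.89 FPKM with a median of 2.34. In liver its level was 1952 to 4665 FPKM, 3441 ± 895 (SD, n = 6). Every hypothalamus column, column 03 included, was below every liver column, and hypothalamus and adipose overlapped. Hypothalamus below liver without overlap held for 16.7% of 13524 genes that reached 1 FPKM in either tissue.

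Because liver also makes transthyretin, albumin, the main liver product of plasma, is given beside it. Alb was at 24.3 FPKM in hypothalamus column 03 and between 22.4 and 60.3 FPKM over the 6 hypothalamus columns. The ratio of Alb to Ttr was 0.0376 in column 03, 2.49 to 16.6 in the other hypothalamus columns, 4.33 to 11.5 in adipose and 8.03 to 19.1 in 5 of the 6 liver columns. In liver column 28, where Alb itself was listed at 1112 FPKM, the ratio was 0.292. The high Ttr of hypothalamus column 03 stood beside an Alb level inside the range of the other 5 columns. The source of that Ttr was not tested.

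Kl encodes klotho, the co-receptor for fibroblast growth factor 23 and an abundant protein of kidney and choroid plexus. It lies at chr5:150952607-150993817 on the plus strand. It was at 3.95 FPKM in hypothalamus column 03, 1.38 in column 13, 1.43 in column 15, 0.577 in column 25, 1.01 in column 28 and 1.35 in column 42. The highest column was 2.77 times the next. In adipose it reached 1.73 FPKM in column 25, lay at 0.548 and 0.532 FPKM in columns 03 and 10, and was listed at 0 in the other 3. It was listed at 0 in all 6 liver columns.

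Sostdc1 encodes a secreted antagonist of BMP and Wnt ligands, and lies at chr12:36314139-36318452 on the plus strand. It was at 2.65 FPKM in hypothalamus column 03 and at 0.826, 0.890, 1.08, 0.853 and 0.933 FPKM in columns 13, 15, 25, 28 and 42. The 5 lower columns lay close together, and column 03 was 2.44 times the highest of them. In adipose its highest value was 0.385 FPKM, below every hypothalamus column, and in liver it was listed at 0 throughout.

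Clic6 encodes a chloride intracellular channel protein, and lies at chr16:92485736-92541243 on the plus strand. It was at 4.08 FPKM in hypothalamus column 03, 2.81 in column 13, 2.26 in column 15, 1.61 in column 25, 2.96 in column 28 and 2.73 in column 42. Column 03 was 1.38 times the next, so the lead was small beside that of Ttr. In adipose it ran to a higher value, 6.83 FPKM in column 25, with a median of 1.59, and was listed at 0 in column 42. In liver it was listed at 0 in every column.

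Otx2 encodes a homeodomain transcription factor that the choroid plexus needs in development and keeps in the adult, and lies at chr14:48657677-48673819 on the minus strand. It was low in hypothalamus, at 0.919, 0.422, 0.301, 0.790, 0.675 and 0.412 FPKM in columns 03, 13, 15, 25, 28 and 42. The highest column was 1.16 times the next. Otx2 was listed at 0 in all 6 adipose and all 6 liver columns, so no fold is given.

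Folr1 encodes folate receptor alpha, which carries folate across the choroid plexus, and lies at chr7:101858331-101870788 on the minus strand. All 5 of its hypothalamus models were listed at 0 in all 6 columns, column 03 included. In adipose it was at 9.85 FPKM in column 03, 1.11 in column 10, 0.644 in column 15, 4.39 in column 25, 4.30 in column 41 and 0 in column 42. In liver it was listed at 0. The member with no hypothalamus signal was thus among the higher members in adipose.

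Enpp2 encodes autotaxin, a secreted enzyme that makes lysophosphatidic acid and is found in choroid plexus, in oligodendrocytes and in adipocytes. It lies at chr15:54838901-54952892 on the minus strand. It was at 117 FPKM in hypothalamus column 03, 42.0 in column 13, 50.9 in column 15, 67.0 in column 25, 58.0 in column 28 and 55.3 in column 42. Column 03 was 1.74 times the next, column 25, which also had the highest oligodendrocyte sum. The part of oligodendrocytes in the Enpp2 level was not tested. The mean was 64.9 ± 26.6 FPKM in hypothalamus, 44.1 ± 7.47 in adipose and 17.6 ± 2.54 in liver (SD, n = 6 each). Every hypothalamus column was above every liver column, and hypothalamus overlapped adipose.

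Foxj1 encodes the forkhead transcription factor that switches on motile cilia, and lies at chr11:116330704-116335399 on the minus strand. In hypothalamus it was at 0.192 FPKM in column 03, 0.319 in column 13, 5.67 in column 15, 1.37 in column 25, 5.96 in column 28 and 0.456 in column 42. Columns 15 and 28 stood together at the top, and column 03 was the lowest. In adipose it was at 5.00, 6.03, 1.30, 17.4, 0.571 and 0 FPKM in columns 03, 10, 15, 25, 41 and 42. In liver it was listed at 0 in 5 columns and at 0.124 FPKM in column 25.

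Across tissues, Kl, Clic6, Otx2, Sostdc1, Foxj1 and Enpp2 were higher in every hypothalamus column than in every liver column. Of the 6 members that reached 1 FPKM in either tissue, 5 did so, and of all 13524 genes that reached it, 58.6% did. Otx2 stayed below that minimum and Folr1 was at 0 in both tissues. Among the 16629 genes above 0 in either tissue the share was 50.8%, against 6 of the 7 members above 0. Against adipose, Otx2 and Sostdc1 were higher in every hypothalamus column. Of the 7 members that reached 1 FPKM in either of those tissues only Sostdc1 was, where 44.9% of 14460 genes were, and among the 17657 genes above 0 the share was 38.2%, against 2 of the 8 members. No member was lower in every hypothalamus column than in every adipose column, where 16.0% of the 14460 genes were. The tissue tables come from separate assemblies, so no test was set across them.

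Within hypothalamus the members ran from highly variable to level. The log2 range, the difference between the highest and the lowest column in log2(FPKM + 1), was 7.67 for Ttr, 2.55 for Foxj1, 1.65 for Kl, 1.45 for Enpp2, just under 1 (0.9994) for Sostdc1, 0.96 for Clic6, 0.56 for Otx2 and 0 for Folr1. The median was 1.23 over the 8 members and 0.395 over 11517 genes with a median of at least 1 FPKM. A range of at least 2 was found in 2 members and in 3.59% of those genes, and a range of at least 1 in 4 members and in 12.4%. Only 4 of the members, Ttr, Kl, Clic6 and Enpp2, met the same minimum, and among these 1 passed 2 and 3 passed 1. Without column 03 the range was 1.67 for Ttr, 0.62 for Kl, 0.66 for Enpp2, 0.60 for Clic6 and 0.19 for Sostdc1, and Foxj1 alone remained past 2.

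Other choroid plexus genes were examined as a list of 18 beside the members. Of the 16 that were above 0 in some hypothalamus column, 11 were highest in column 03 and 6 were there at least 2 times the next column. Several of them never reached 1 FPKM, so the matching background is the 15586 genes above 0 in some hypothalamus column, of which 16.1% were highest in column 03 and 1.30% were there at least 2 times the next. The next largest count of the 16 was 2 genes, in columns 13 and 28. The 6 were Kcne2 and Slc4a5, a potassium channel subunit and a bicarbonate transporter of the choroid plexus membrane, Aqp1, its water channel, Trpv4, a cation channel, Cldn2, a tight junction protein, and Steap1, a metalloreductase. Kcne2 was at 0.960 FPKM, Slc4a5 at 0.684 and Trpv4 at 0.365 in column 03, and each was listed at 0 in the other 5. These 3 were above 0 only through column 03, so their place in both counts was fixed by that filter. Aqp1 was at 1.29 FPKM in column 03 and at most 0.139 elsewhere. Cldn2 was at 0.751 FPKM in column 03 and at most 0.167 elsewhere, and Steap1 at 1.05 FPKM and at most 0.274. These are low levels, near or below 1 FPKM, and no count of reads stands behind them.

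Several choroid plexus genes had little or no lead in column 03. The genes of the list with the highest medians besides Enpp2 were Igfbp2 and Cab39l. Igfbp2, an insulin-like growth factor binding protein that glia and tanycytes also make, was at 15.3 FPKM in column 03 and 13.3 to 22.7 FPKM in the other 5. Cab39l, a kinase scaffold protein, was highest in column 03 by a small margin, at 7.79 FPKM there and 5.71 to 6.42 FPKM elsewhere. Slc13a4, a sulfate transporter, was at 3.57 FPKM in column 03 and 1.92 to 4.61 FPKM elsewhere, and the prolactin receptor gene Prlr at 2.42 and 1.03 to 2.68 FPKM. Tmem72 and F5 were listed at 0 in all 6 columns, as Folr1 was. Over the list of 25, members included, the sum was 817 FPKM in column 03 and 86.7 to 109 FPKM in the other 5. Without the members the sum was 42.9 FPKM in column 03 and 28.5 to 41.8 FPKM elsewhere, so the members, and Ttr above all, carried the difference in the sum.

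**Figure D2:**
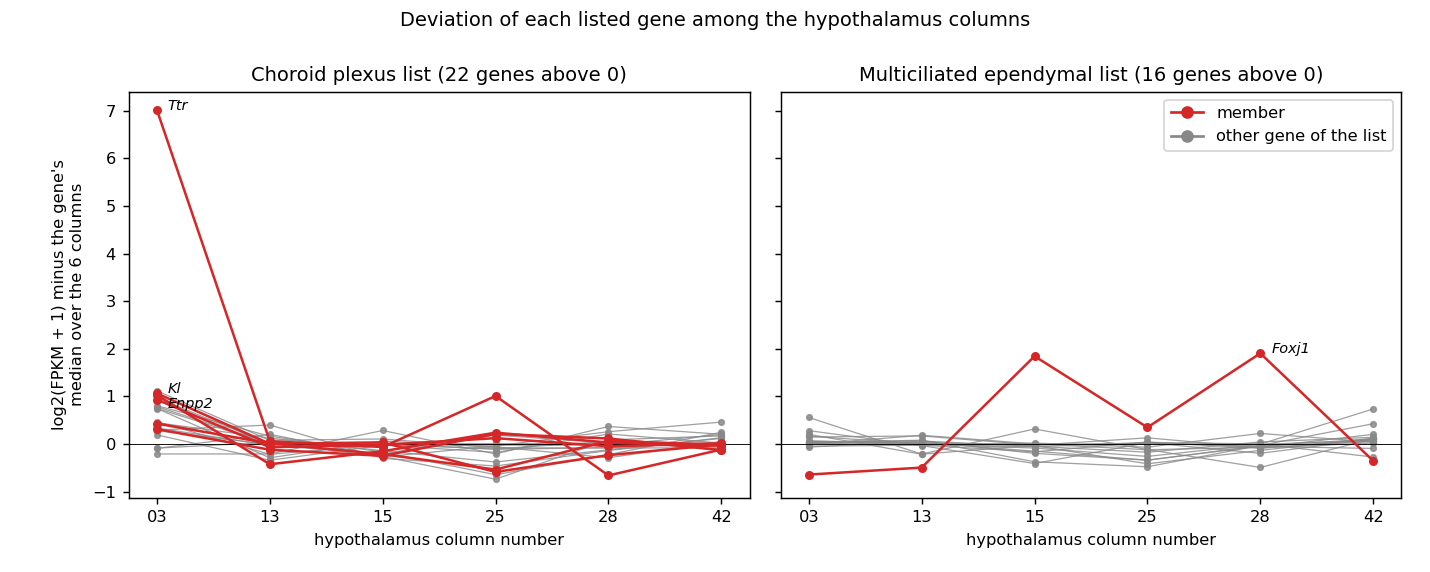
Difference of each gene's log2(FPKM + 1) from its own median over the 6 hypothalamus columns (vertical axis), by column number, for the 22 choroid plexus genes (left) and the 16 multiciliated ependymal genes (right) that were above 0; members are red, other listed genes grey. The left panel rises at column 03, by far the most for Ttr, and in the right panel Foxj1 rises at columns 15 and 28 while the other genes stay within 1 log2 unit of their medians.

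Markers of other cells in column 03 lay inside the range of the other columns for most lists. The astrocyte sum was 796 FPKM in column 03 and 775 to 893 FPKM elsewhere, the tanycyte sum 27.9 and 23.4 to 38.3 FPKM, and the endothelial sum 42.1 and 36.6 to 47.5 FPKM. Ptgds, the prostaglandin D synthase made by meninges, oligodendrocytes and choroid plexus, was at 611 FPKM in column 03 and 335 to 700 FPKM in 4 others, and at 4.37 FPKM in column 15. The oligodendrocyte sum was 2969 FPKM in column 03. The thalamus and habenula sum was 264 FPKM in column 03, below 380 FPKM in column 25 and above 180 to 244 FPKM in the remaining columns. The part of these other cells in the member levels was not tested.

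The ciliary program of ependymal cells was nearly level across the hypothalamus columns, while Foxj1 was not. Of 20 ependymal genes taken as a list, 18 were in the tables, and Hydin and Mcidas were listed at 0 throughout. The sum of the list was 49.9, 43.8, 47.1, 38.9, 46.6 and 49.4 FPKM in columns 03, 13, 15, 25, 28 and 42. The log2 range reached 1 in 2 of its genes, Foxj1 and Rarres2, and the median range was 0.41, beside 0.395 over the 11517 genes. The 2 medians are not over like sets. That of the list takes in the 2 genes at 0 and others with a median below 1 FPKM, which the 11517 leave out. Fam183b, a ciliary protein gene, was at 5.25 to 10.7 FPKM, Tmem212 at 3.39 to 4.57 FPKM, Ccdc153 at 3.42 to 4.28 FPKM and the tektin gene Tekt1, which builds the axoneme, at 1.78 to 2.68 FPKM. Rarres2, the gene of the secreted protein chemerin, was at 4.85 to 11.1 FPKM. In columns 03 and 13, where Foxj1 was 0.192 and 0.319 FPKM, Tekt1 was 2.60 and 2.68 FPKM, and in columns 15 and 28, where Foxj1 was 5.67 and 5.96 FPKM, Tekt1 was 2.06 and 2.41 FPKM. Dynlrb2 went the other way, at 3.89 and 3.96 FPKM in columns 03 and 13 and 4.12 and 4.88 FPKM in columns 15 and 28. The list without Foxj1 and Rarres2 summed to 38.6, 37.4, 32.2, 30.9, 35.8 and 41.0 FPKM in columns 03, 13, 15, 25, 28 and 42. All 3 Foxj1 models were higher in columns 15 and 28 than in the other 4 columns.

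Covariation was measured over the 6 hypothalamus columns on log2(FPKM + 1), with an exact two-sided permutation test over all 720 pairings and Benjamini-Hochberg adjustment within the family. The smallest p such a test can give is 0.00139. Folr1 and Otx2 stayed below 1 FPKM and were left out, which leaves 15 pairs. For Ttr and Sostdc1, in which column 03 is set apart in both on this log2 scale, no pooled correlation is given. On linear FPKM column 03 is set apart in Kl and Enpp2 as well, so on that scale no pair among these 4 genes would have a pooled r. None of the remaining 14 pairs passed an adjusted p of 0.05 by Pearson's r or by Spearman's rho, and 2 had an unadjusted exact p below 0.05 for r. Sostdc1 and Enpp2 had r = 0.95 (exact permutation p = 0.00694, adjusted p = 0.0972) and rho = 0.83 (exact permutation p = 0.0583, adjusted p = 0.817). Without columns 03 and 25, those farthest from the median of Sostdc1, r was 0.57. Ttr and Enpp2 had r = 0.91 (exact permutation p = 0.0486, adjusted p = 0.285) and rho = 0.43 (exact permutation p = 0.419, adjusted p = 0.870). Without columns 03 and 25 that r was -0.76, so the positive relation rests on those columns. Kl and Clic6 had r = 0.86 (exact permutation p = 0.0611, adjusted p = 0.285) and rho = 0.49 (exact permutation p = 0.356, adjusted p = 0.870), and r was -0.67 without the same columns. Foxj1 had a negative r with each of the 5 others, from -0.51 with Ttr to -0.30 with Enpp2, and the lowest exact permutation p of these was 0.339, with an adjusted p of 0.482.

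The 6 members were also set against single markers of other cells, namely the astrocyte water channel Aqp4, the GABA synthesis gene Gad1, the collagen gene Col1a2 and the globin gene Hba-a1. Of 24 pairs, none passed by r or by rho, none had an unadjusted exact p below 0.05, and the lowest adjusted p was 0.972 for r. Rax and Gh, planned as tanycyte and pituitary markers, stayed below 1 FPKM and were left out. The p-values measure only the spread among these 6 columns.

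The genes most like Ttr over the 6 hypothalamus columns, by Pearson's r, included 2 members. They were sought among 1354 genes with a median of at least 1 FPKM and a log2 range of at least 1, leaving out names of predicted or uncharacterised genes and of small RNAs (Gm, LOC, Rik, ENSMUSG, Mir and Snor names) and Ttr itself. The 10 were Clns1a (0.98), Sec22a (0.95), Rin2 (0.95), Enpp2 (0.91), Rsg1 (0.88), Armc9 (0.87), Fam189b (0.85), Apbb1 (0.85), Kl (0.84) and Pmpca (0.83). The rule that withholds a pooled r where 1 column is set apart in both genes was not applied to this ranking. Column 03 alone can therefore give a high r here. Ttr is set apart in column 03, so a ranking by r with it favours genes that are high there. All 10 were highest in column 03, which follows largely from that choice. The fold over the next column ran from 1.71 for Armc9 to 6.48 for Apbb1. Clns1a, which encodes a subunit of the methylosome, was at 28.3 FPKM in column 03 and 12.5 to 14.2 FPKM elsewhere. The 10 most like Foxj1, among 1355 genes, were Cmbl (0.96), Las1l (0.94), Rnf208 (0.93), Zfp652 (0.91), Atp2b4 (0.91), Fam13c (0.88), Pnpla6 (0.88), Dcaf11 (0.85), Rnf126 (0.85) and Vwa1 (0.85). The ependymal list could hardly supply any of them, since Rarres2 is its only other gene with a log2 range of at least 1. Cmbl, a hydrolase gene, was at 9.38 and 10.6 FPKM in columns 15 and 28 and at 4.31 to 5.78 FPKM in the other 4. These are descriptions over 6 columns of 1 tissue, with no test.

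Assembled models of Enpp2 began in 2 places far apart, and the tissues differed in which of them held its FPKM. On the minus strand of chr15, models began either between 54920146 and 54920544 or between 54952686 and 54953103, 32142 bases farther upstream. The annotation (GENCODE M21) lists 9 Enpp2 transcripts, of which 1 begins at the upstream end, at 54952892. In hypothalamus none of the 5 minus-strand models began upstream. In adipose the upstream models held 32.6%, 51.0%, 97.7%, 56.9%, 53.3% and 76.7% of the minus-strand FPKM in columns 03, 10, 15, 25, 41 and 42. In liver they held 98.6% to 100%. Hypothalamus and liver did not overlap in this share, and adipose lay between them in every column. Which model a read is given to depends on the assembly of each tissue, and the effect of that step was not tested. In hypothalamus column 03, 1 model beginning at 54920544 held 31.4 FPKM and was listed at 0 in the other 5 columns. The 4 models beginning at 54920146 held 84.9 FPKM in column 03 and 41.9 to 66.0 FPKM elsewhere, so column 03 was highest without the added model as well. The single model with the highest mean gave another order, with 25.7 FPKM in column 03 and 27.4 to 39.7 FPKM in the others. A model on the plus strand in hypothalamus had at most 1.03 FPKM.

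**Figure D3:**
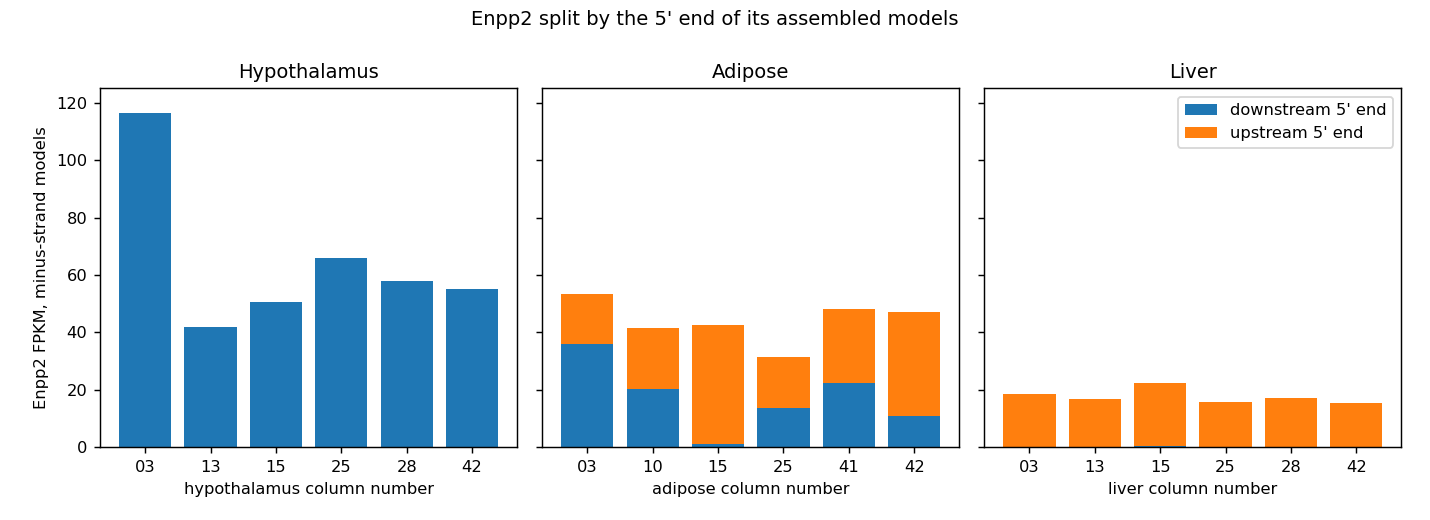
Enpp2 FPKM on the minus strand (vertical axis) in each column of hypothalamus, adipose and liver, stacked by whether the model begins at the downstream (blue) or the upstream (orange) end. Hypothalamus bars are blue throughout, adipose bars hold 32.6% to 97.7% orange, and liver bars are at least 98.6% orange.

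Among the adipose columns the members split along another line. Foxj1, Clic6 and Kl were each highest in column 25, at 17.4, 6.83 and 1.73 FPKM, and all 3 were listed at 0 in column 42. Another 3 of the 7 members above 0, Folr1, Sostdc1 and Enpp2, were highest in column 03. That column was highest for 32.8% of 12150 genes that reached 1 FPKM in some adipose column. Sostdc1 stayed below that minimum and is not among the 12150. Of 16 ependymal genes above 0 in adipose, 14 were highest in column 25, the column that was highest for 9.97% of the 12150 genes. Tmem212 was at 20.6 FPKM there and at 0 to 11.2 FPKM elsewhere, and Ccdc153 at 17.2 FPKM and 0 to 9.63 FPKM. Apart from Rarres2, which adipocytes also make and which was at 36.5 to 53.3 FPKM, 15 genes of the list were above 0 in adipose. Their sum was 61.0, 43.3, 7.22, 123, 27.7 and 0 FPKM in columns 03, 10, 15, 25, 41 and 42. In hypothalamus the same sum was 32.3 to 41.8 FPKM. Gonadal fat of male mice lies against the epididymis and the efferent ducts, the latter lined in part by ciliated cells. Summed over 8 epididymis and testis genes, the columns had 2259, 843, 7.10, 1.79, 2281 and 3.29 FPKM in the same order. Of these, Lcn5, Crisp1 and Gpx5 mark the epididymal epithelium and Prm1 and Tnp1 germ cells, and Lcn5 was listed at 0 in column 25 and at 168 and 388 FPKM in columns 03 and 41. In columns 15, 25 and 42 nearly all of that sum was Sycp3, at 6.64, 1.58 and 3.29 FPKM, a meiotic gene that was also at 3.87 to 5.48 FPKM in hypothalamus. The 4 epididymal genes Lcn5, Spink8, Crisp1 and Gpx5 summed to 2251, 842, 0.459, 0.206, 2275 and 0 FPKM in columns 03, 10, 15, 25, 41 and 42. Columns 15, 25 and 42 were all near 0 for them. The ciliary sum was highest in column 25 and 0 in column 42. None of the 8 genes was chosen to mark the efferent ducts. Folr1 was above 4 FPKM in columns 03, 25 and 41 and at most 1.11 FPKM in the others. Cldn2 was at 44.7, 4.87, 1.14, 12.7, 19.3 and 0 FPKM in columns 03, 10, 15, 25, 41 and 42, also highest in those 3. The part of any other tissue in these values was not tested.

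The adipose pairs were measured in the same way, a choice made after the values were seen. None of 15 pairs passed an adjusted p of 0.05 by r or rho, and 3 had an unadjusted exact p below 0.05 for r. Clic6 and Foxj1 had r = 0.98 (exact permutation p = 0.00556, adjusted p = 0.0625), rho = 0.89 (exact permutation p = 0.0333, adjusted p = 0.167) and r = 0.93 without columns 25 and 42. Kl and Clic6 had r = 0.96 (exact permutation p = 0.00833, adjusted p = 0.0625), rho = 0.94 (exact permutation p = 0.0167, adjusted p = 0.167) and r = 0.89 without columns 03 and 25. Kl and Foxj1 had r = 0.95 (exact permutation p = 0.0167, adjusted p = 0.0833), rho = 0.88 (exact permutation p = 0.05, adjusted p = 0.188) and r = 0.91 without columns 03 and 25. In hypothalamus the r of Clic6 and Foxj1 was -0.33 and that of Kl and Foxj1 -0.43, and the difference between the tissues was not tested. With every column rescaled to the mean FPKM total, these 3 pairs passed, each with an adjusted p of 0.0417 by the exact permutation test, and over the settings tried the count passing was 0 or 3. With a common total of 1000000, which also brings Sostdc1 past the minimum and so makes 21 pairs, none passed, 4 had an unadjusted exact p below 0.05 and the lowest adjusted p was 0.146.

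**Figure D4:**
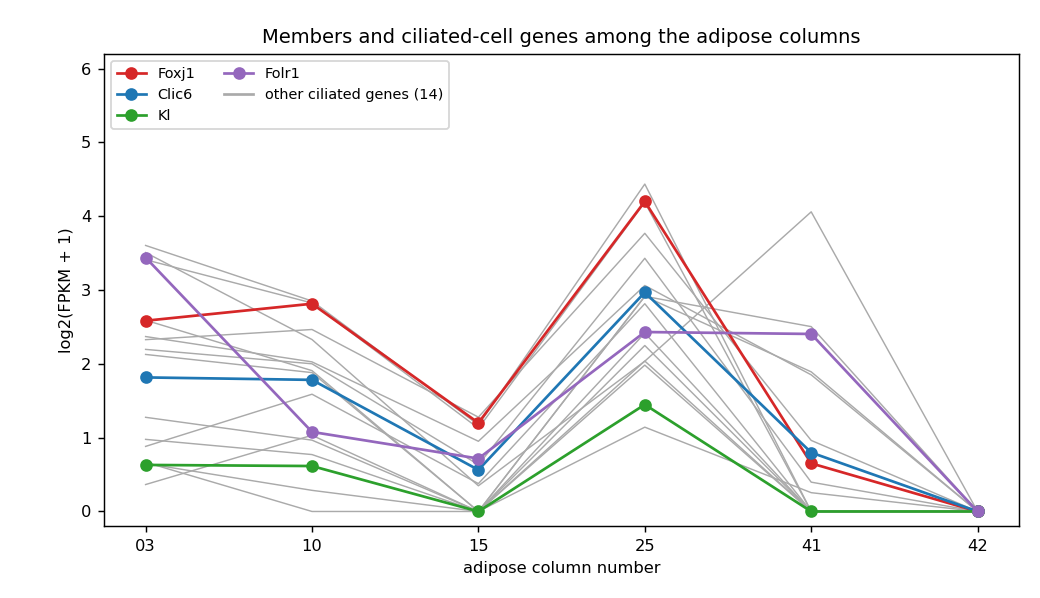
Level as log2(FPKM + 1) (vertical axis) of Foxj1, Clic6, Kl and Folr1 and of 14 other ciliated-cell genes (grey) in the 6 adipose columns. Foxj1, Clic6 and Kl peak at column 25, Folr1 is highest in column 03 at 9.85 FPKM, and all of the lines end at 0 in column 42.

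Promoter sequence was found for Kl and Otx2, 2 of the 8 members, in a RefSeq table of the build GRCm38.p6. It holds 5 windows for them, each from 250 bases before to 50 bases after a gene start. The 3 windows whose gene start is also the first base of an assembled hypothalamus model are shown, 5′ to 3′ on the strand of the gene, to set the sequence beside the level that was assigned to it. Capitals mark a match to a binding motif. The motifs searched, on both strands, were the OTX-type site TAATCC, which Otx2 itself can bind, the short RFX-type site GTTGCC, of factors that work with Foxj1 on ciliary genes, and the forkhead site GTAAACA.
Kl at chr5:150952357-150952656, plus strand: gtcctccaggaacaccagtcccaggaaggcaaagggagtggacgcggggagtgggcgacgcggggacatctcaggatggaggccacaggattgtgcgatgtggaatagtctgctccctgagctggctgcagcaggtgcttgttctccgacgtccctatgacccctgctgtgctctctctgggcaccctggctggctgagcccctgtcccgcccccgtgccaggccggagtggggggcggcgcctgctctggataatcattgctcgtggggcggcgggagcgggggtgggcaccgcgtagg
Otx2 at chr14:48667595-48667894, minus strand: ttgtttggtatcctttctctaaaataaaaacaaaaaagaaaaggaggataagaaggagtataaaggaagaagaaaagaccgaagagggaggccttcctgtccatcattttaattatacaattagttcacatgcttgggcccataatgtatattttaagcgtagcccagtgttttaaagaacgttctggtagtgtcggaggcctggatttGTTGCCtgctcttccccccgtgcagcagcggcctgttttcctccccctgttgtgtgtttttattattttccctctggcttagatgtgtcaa
Otx2 at chr14:48665060-48665359, minus strand: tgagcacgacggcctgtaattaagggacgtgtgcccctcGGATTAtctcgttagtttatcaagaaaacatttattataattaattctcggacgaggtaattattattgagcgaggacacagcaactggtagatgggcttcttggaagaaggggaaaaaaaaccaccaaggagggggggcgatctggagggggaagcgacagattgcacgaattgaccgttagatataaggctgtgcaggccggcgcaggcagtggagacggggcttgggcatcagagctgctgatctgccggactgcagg

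The Kl window holds none of the 3 motifs, and the single Kl model beginning there carried the whole Kl level, 0.577 to 3.95 FPKM. The first Otx2 window holds 1 GTTGCC at base 210, and the 2 models beginning at its start held 0.196 to 0.754 FPKM, with column 03 the highest. The other Otx2 window holds GGATTA, which is TAATCC on the opposite strand, at base 40. Its 1 model was listed at 0 in 4 hypothalamus columns and at no more than 0.187 FPKM. Of 32851 promoters of the same length in the table, 7.06% hold TAATCC on either strand, 12.5% hold GTTGCC and 3.65% hold GTAAACA. A match is a match of letters and no measure of binding.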

How the data were processed

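The RNA of 18 samples was selected for poly-A and sequenced, per the labels' protocols. The submitters' processing notes name the aligner HISAT (0.1.6), the assembler StringTie (1.0.4) and the build mm10. For each tissue the authors deposited FPKM per gene and per transcript model, in 6 tables whose expression columns are headed by a tissue and a number, per the file headers. The annotation and the strandedness of the counting are not given in the sources used here.

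FPKM was summed over the models of each gene name with pandas 2.3.3. Cells that hold no number, 9 in hypothalamus, 13 in adipose and 9 in liver, were taken as missing, and none belongs to a member. Correlations used log2(FPKM + 1), the pseudocount being 1, with exact permutation tests checked on simulated data (scipy 1.17.1). Genes reaching 1 FPKM formed the background of comparisons between tissues. No depth is known, so no counting interval is given. The labels do not say that samples of a tissue are separate animals. The members and the lists were chosen with earlier results of these data known. Named were the 8 members, the genes of each list with the highest median or largest log2 range, and the 10 most like Ttr and Foxj1; other listed genes were picked after their values were seen. Alternatives were the gene table, equal column totals, the single model with the highest mean, a pseudocount of 0.1, a linear scale, other filters and each column left out. One planned marker gene is not reported here and was left out of its list and of the pairs.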

Additional observations from a re-analysis of the deposited data

Results flagged for a closer look

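In 17 sets of 6 columns, the gap between the extreme column and its neighbour was compared with the whole range on linear FPKM. A column was set apart in 8 sets. The critical value sets apart about 1 in 20 sets of normally distributed values. Linear FPKM need not be so distributed, and the share over all genes was not measured, so the 8 cannot be set against a chance rate. In hypothalamus, column 03 was set apart at the top for 4 members: Ttr at 646 FPKM, with the next column at 9.08, Kl at 3.95 with the next at 1.43, Sostdc1 at 2.65 with the next at 1.08, and Enpp2 at 117 with the next at 67.0. In adipose, column 25 was set apart at the top for 3 members: Foxj1 at 17.4 FPKM, with the next at 6.03, Clic6 at 6.83 with the next at 2.52, and Kl at 1.73 with the next at 0.548. In liver, Foxj1 was at 0.124 FPKM in column 25 and listed at 0 in the other 5. With 5 columns at 0, any value above 0 is set apart on either scale, so this flag carries no weight. The 4 hypothalamus values share 1 column and the 3 adipose values share another, so they are not separate observations. On log2(FPKM + 1), the scale of the ranges and correlations, 3 of the 8 were still set apart. They were Ttr and Sostdc1 in hypothalamus and, by its zeros alone, Foxj1 in liver. The other 5 were not, with the gap at 0.623 of the range for Kl and 0.544 for Enpp2 in hypothalamus and 0.565 for Kl, 0.388 for Clic6 and 0.330 for Foxj1 in adipose, all below the critical value for 6 columns.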

How the results depend on the processing

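No paired analysis was possible because the column headings carry no replicate number or treatment of the labels, and no label says what the numbers shared between tissues mark. Of the counts that answer a comparison, 82 values under other settings stayed within 1.5 times the main one and 3 did not. The number of members lower in every hypothalamus column than in every liver column was 0 with the single model of highest mean, against 1 for summed models: the 2 Ttr models of liver divide the sum unevenly between columns. The number of members with a log2 range of at least 2 in hypothalamus was 1 to 2 with each column left out, and 1 without column 03. The number of adipose pairs passing was 3 with every column at the mean total, against 0, and 0 at a common total of 1000000 and with each column left out; the cause was not tested. With no filter on low values the backgrounds were 28.2% and 10.2% against adipose and 35.4% and 9.78% against liver. With a pseudocount of 0.1 the log2 range was 4.38 for Foxj1, 2.58 for Kl, 1.57 for Sostdc1 and 1.34 for Otx2, and 6.10% of genes reached 2. The depth is unknown, so values near 0 cannot be bounded.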
